A study of Homo sapiens with 12 samples.

Results

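Desmosomes are the button-like junctions that bind epithelial cells to each other and anchor their keratin filaments, and the messenger RNA of 10 genes that build them was followed in a human breast cancer line grown in mice. The genes were chosen by name as the rows of the count files for DSP, JUP, DSG2, DSG3, DSC2, DSC3, PKP1, PKP2, PKP3 and PERP, 10 of the 26475 gene symbols listed. All 10 were present, and 7 of them passed the filter on low counts that left 15461 genes to be tested. PKP1, DSC2 and DSC3 did not pass it.

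The line, SUM159 (SUM159PT), is a triple-negative, mesenchymal-like breast cancer line, and a suspension of cells was injected into 8-week-old female NOD scid gamma mice, which lack T, B and natural killer cells but keep host stroma and myeloid cells. Tumour cells were stained with antibodies to human CD24 and CD44 and sorted into CD44-positive fractions with much CD24 (HI), taken as more differentiated, or little CD24 (LO), taken as enriched for cancer stem cells. The 12 RNA sequencing libraries formed 4 groups of 3: the fasting-mimicking diet with CD24-high cells (FMD_HI) or CD24-low cells (FMD_LO), and the standard diet with CD24-high cells (CTR_HI) or CD24-low cells (CTR_LO). The fasting-mimicking diet was given in cycles of 4 consecutive days in each week. The labels do not say whether replicates were separate mice or tumours, so p-values measure the spread between these samples, which may be technical.

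In a desmosome, the cadherins of the desmoglein (DSG) and desmocollin (DSC) families meet between the cells. Inside the cell their tails bind plakoglobin (JUP) and the plakophilins (PKP), which in turn hold desmoplakin (DSP), the protein that grips the intermediate filaments. PERP is a membrane protein of desmosomes in stratified epithelia and a target of p53 and p63. Desmosomes give skin, other epithelia and heart muscle their mechanical strength, and the loss of desmosomal proteins is a known feature of epithelial to mesenchymal transition.

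Library totals ran from 17736610 to 47587142 counts, and the 3 FMD_LO libraries were the smallest and stood apart from the other 9 on the first principal component. Levels are given as CPM, that is counts after scaling for library size. Summed markers of other cell types were highest in FMD_LO, though not every marker moved. The 10 leukocyte genes summed to 157 to 180.0 CPM in FMD_LO, against 21.0 to 36.3 in CTR_LO. They summed to 37.9 to 54.1 in FMD_HI, against 28.1 to 43.9 in CTR_HI. Of the leukocyte genes 5 of the 8 tested rose in FMD_LO against CTR_LO, and TYROBP, a myeloid signalling adaptor, did not exceed 0.0336 CPM in any library of the 4 groups. CD68 (0.79 ± 0.33 on the log2 scale), CD14 (0.82 ± 0.41) and LAPTM5 (0.48 ± 0.30) were not called. Over all 15461 genes tested, 1863 were called higher in FMD_LO against CTR_LO (adjusted p below 0.05). The sum of 10 fibroblast genes was 46778 to 69348 CPM in FMD_LO and 19833 to 35391 CPM in CTR_LO, with 5 of 10 rising. It was 13950.4 to 17695 CPM in FMD_HI and 16101 to 30222 CPM in CTR_HI. COL1A1, COL1A2 and COL3A1 made up most of it in every group, with COL1A1 averaging 7993 CPM in FMD_HI and 23660 CPM in FMD_LO. These 3, PDGFRA and FAP were the genes that rose. DCN, LUM, THY1, POSTN and PDGFRB were not called, with LUM at -0.25 ± 1.06 on the log2 scale. The sum of 10 endothelial genes was 49.3 to 102 CPM in FMD_LO and 32.05 to 41.5 in CTR_LO, with 2 of 9 rising, KDR and TEK. PECAM1, CDH5, VWF, ERG, ESAM, TIE1 and CLDN5 were not called. The risers CD53, a leukocyte gene, and TEK, an endothelial gene, would not have passed the count filter without the FMD_LO libraries, so no direction is read from their calls. In FMD_HI against FMD_LO, 5 of 8 leukocyte, 5 of 10 fibroblast and 5 of 9 endothelial genes were called lower. CD53 and TEK were counted among them, and no direction is read from these calls of CD53 and TEK either. Over all 15461 genes tested, 1879 were called lower in FMD_HI against FMD_LO. Of 6 genes typical of SUM159 none of those tested was called in any comparison, though CD44 in FMD_HI against FMD_LO was called in 3 of 19 alternative fits. The epithelial markers CDH1 and EPCAM averaged no more than 1.47 and 0.476 CPM in any group. Whether RNA of such cells took part in the differences below was not tested, and in bulk samples fewer cells of a type and less RNA per cell cannot be told apart.

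The messenger RNA of the 10 desmosome genes was uneven in level. Per kilobase of exon, PERP stood highest with a mean of 70.9 CPM per kb over the 12 libraries, followed by JUP with 59.4, DSG2 with 34.1, DSP with 25.4 and PKP3 with 19.6 CPM per kb. DSG3 was lower at 5.79 CPM per kb and PKP2 at 0.169 CPM per kb, while PKP1, DSC2 and DSC3 stood at 0.0227, 0.00966 and 0.00583 CPM per kb. PERP was above JUP in 11 of 12 libraries and DSP above PKP3 in 10 of 12, so these neighbours were not cleanly ordered. JUP lay above DSG2, DSG2 above DSP, PKP3 above DSG3 and DSG3 above PKP2 in 12 of 12. The ends of the order, PKP1 over DSC2 in 10 and DSC2 over DSC3 in 9 of 12, rested on single-digit counts.

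On the scale of CPM, without regard to length, PERP, JUP, DSP and DSG2 ranked above 95.4% or more of the tested genes, PKP3 above 84.7%, DSG3 above 65.7% and PKP2 above 15.9%. PERP, JUP, DSP and DSG2 together held 89.1% to 91.3% of the summed CPM of the 10 genes in FMD_LO, and the range was 89.6% to 90.5% in FMD_HI, 90.3% to 91.9% in CTR_HI and 90.5% to 92.7% in CTR_LO. Among the 7 tested genes, PERP had shares of 22.1% to 25.3% in FMD_LO, all under the 26.7% to 27.6% of CTR_LO. JUP had shares of 25.6% to 27.02% in FMD_LO, all over the 23.8% to 25.2% of CTR_LO, and the shares of the other 5 overlapped between these groups. Shares of a single sum move against each other, and these separations were not tested.

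**Figure D1:**
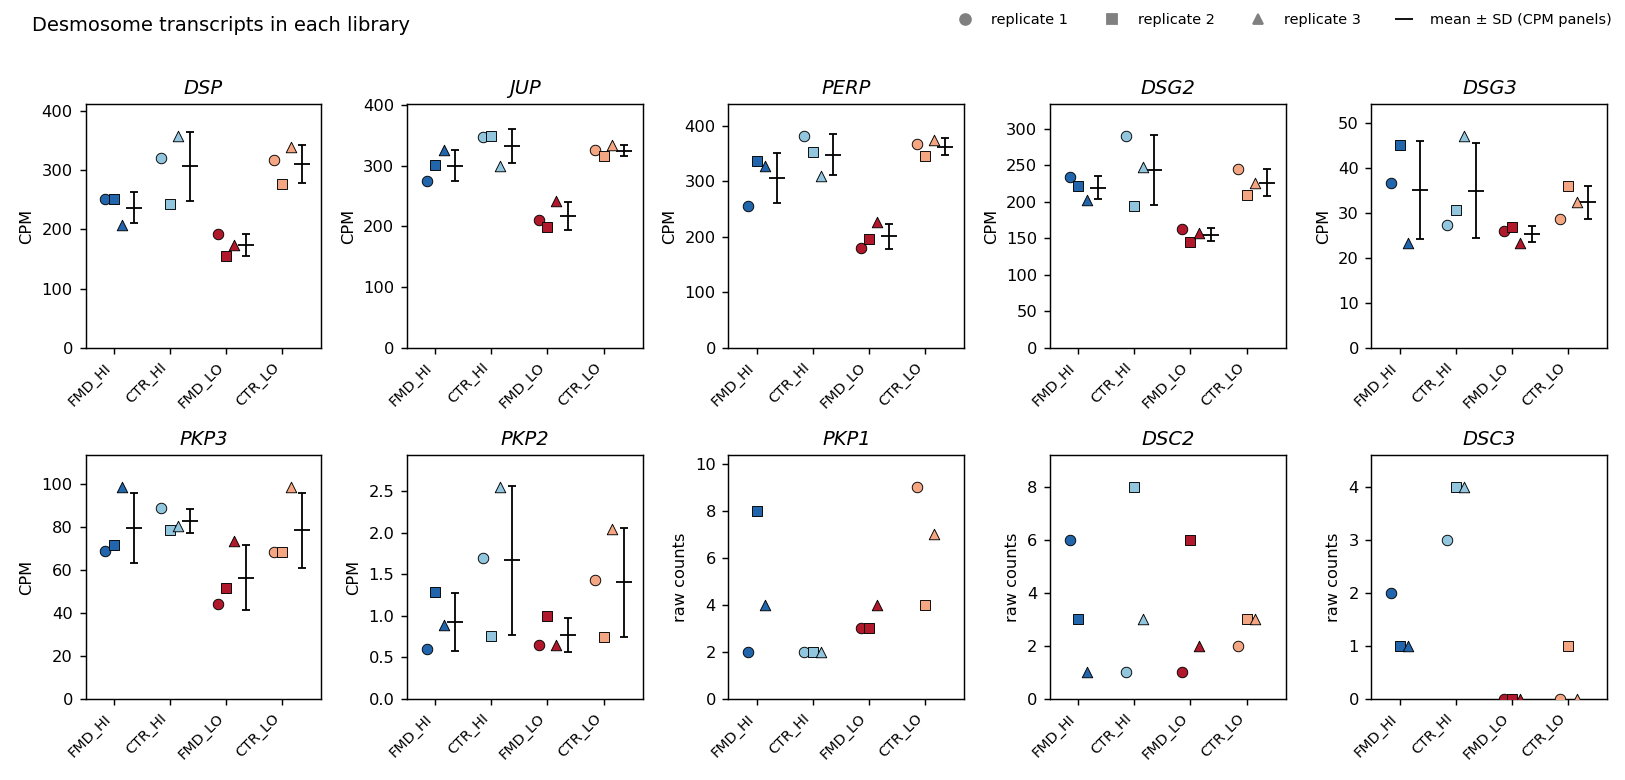
Level of each of the 10 desmosome genes in every library, in CPM for the 7 genes tested and in raw counts for PKP1, DSC2 and DSC3, by group (FMD_HI, CTR_HI, FMD_LO, CTR_LO; point shape gives the replicate number, bars mean ± SD, n = 3). The 3 FMD_LO points of DSP, JUP, PERP, DSG2 and DSG3 lie under all 3 CTR_LO points.

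The desmosomal cadherins sit in a single cluster on chromosome 18 (GRCh38.p14, 30989365 to 31549008), in the order DSC3, DSC2, DSC1, DSG1, DSG4, DSG3, DSG2. The last 2 of these 7 genes passed the count filter: DSG3 (31447741 to 31478702, plus strand) with 11904 counts over the 12 libraries and its neighbour DSG2 (31498177 to 31549008, plus strand) with 80435. Their bodies are 19474 bases apart. The other 5 genes had 16 to 57 counts each over all libraries, and no single library had more than 12 counts of any of them. The desmocollins, the usual partners of desmogleins, were among those 5.

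The promoters of the 4 most abundant members, which were also the 4 that differed between the diets in CD24-low cells, are shown as RefSeq gives them on GRCh38.p14, from 250 bases before the start of transcription to 50 after it. An entry was found for 8 of the 10 members, and PKP2 and PKP3 had none. The regions are chr6:7541421-7541720 on the plus strand for DSP, chr6:138107370-138107669 on the minus strand for PERP, chr17:41786662-41786961 on the minus strand for the first of 2 JUP starts, and chr18:31497927-31498226 on the plus strand for DSG2. Capitals mark the letters CACCTG on either strand (read as CAGGTG on the other), the E2 box that the repressors ZEB1, ZEB2, SNAI1 and SNAI2 are known to bind.
DSP: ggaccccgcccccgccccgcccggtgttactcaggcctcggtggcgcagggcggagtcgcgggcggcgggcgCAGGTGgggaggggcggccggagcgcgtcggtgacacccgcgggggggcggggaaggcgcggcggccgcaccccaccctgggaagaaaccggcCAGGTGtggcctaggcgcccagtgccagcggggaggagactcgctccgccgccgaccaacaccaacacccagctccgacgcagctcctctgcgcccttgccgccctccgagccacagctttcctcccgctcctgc
PERP: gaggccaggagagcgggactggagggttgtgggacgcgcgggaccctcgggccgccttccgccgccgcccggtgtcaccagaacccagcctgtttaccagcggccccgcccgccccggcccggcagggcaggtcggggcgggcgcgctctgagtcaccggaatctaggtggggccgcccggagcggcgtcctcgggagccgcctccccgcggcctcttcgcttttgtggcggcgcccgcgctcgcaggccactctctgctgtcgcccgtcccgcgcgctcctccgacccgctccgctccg
JUP: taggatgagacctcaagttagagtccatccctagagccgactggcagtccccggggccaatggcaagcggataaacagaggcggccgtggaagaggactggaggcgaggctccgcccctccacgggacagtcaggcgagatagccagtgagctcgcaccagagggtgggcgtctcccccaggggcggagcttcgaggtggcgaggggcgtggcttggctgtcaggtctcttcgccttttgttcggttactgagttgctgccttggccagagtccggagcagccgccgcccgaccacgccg
DSG2: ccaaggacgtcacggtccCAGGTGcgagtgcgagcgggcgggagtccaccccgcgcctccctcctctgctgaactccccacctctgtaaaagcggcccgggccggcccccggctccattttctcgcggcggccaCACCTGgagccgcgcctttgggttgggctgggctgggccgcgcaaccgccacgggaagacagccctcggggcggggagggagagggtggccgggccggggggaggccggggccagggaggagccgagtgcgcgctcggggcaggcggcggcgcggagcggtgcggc
DSP held 2 E2 boxes, beginning at -178 and -85 from the start, and DSG2 held 2, at -232 and -116. PERP and the first JUP start held 0, while the second JUP start held 2, at -54 and -43. Among 35116 RefSeq promoters of the same length, 20.6% held at least 1 E2 box and 3.49% held 2 or more. The GC box GGGCGG, counted on both strands and overlapping no E2 box here, occurred 8 times in DSP, 5 in PERP, 3 in JUP and 2 in DSG2, and 44.95% of all promoters held at least 1. The guanine and cytosine content was 77.0% for DSP and PERP, 76.7% for DSG2 and 65.3% for JUP, against a median of 58.7% over all promoters. The motifs were picked after the expression values had been seen, and a match is a string of letters, not a measured binding site.

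For the fraction taken as stem-like, the question was how FMD_LO differed from CTR_LO. The 4 most abundant desmosome genes, PERP, DSP, JUP and DSG2, fell in FMD_LO, to between 0.555 and 0.685 of the CTR_LO level. Summed over all 10 genes the level was 829.7 ± 61.8 CPM in FMD_LO and 1336 ± 79.1 CPM in CTR_LO (SD, n = 3 each). The 4 genes were called at an adjusted p below 0.05 of 7 tested, all lower, where 4.33% of all genes tested were called lower and 16.4% in either direction. All 7 had a negative log2 fold change, with a median of -0.58 against -0.031 over all genes.

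DSP, the plaque protein that ties the junction to keratin, had 192, 155 and 174 CPM in FMD_LO, against 316, 276 and 338 CPM in CTR_LO. Every FMD_LO library lay under every CTR_LO library, with a gap wider than the spread of either group. The log2 fold change was -0.84 ± 0.15 (SE), with an adjusted p of 0.00215. JUP, which links the cadherin tails to DSP and also serves in adherens junctions, had 210.0, 199 and 242 CPM in FMD_LO, against 326, 316 and 334 CPM in CTR_LO. The groups were again separate, and the CTR_LO libraries were tight, with a coefficient of variation of 2.86%. JUP fell by 0.58 ± 0.12 on the log2 scale (adjusted p = 0.00369).

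PERP, the tetraspan membrane protein, had 180.2, 196 and 226 CPM in FMD_LO, against 367, 345 and 375 CPM in CTR_LO. Its highest FMD_LO library stayed well under its lowest CTR_LO library, and it had the smallest p of the 7 genes (log2 fold change -0.85 ± 0.14, adjusted p = 8.09e-04). DSG2, the desmoglein of simple epithelia and the most abundant cadherin of the set, had 163, 145 and 157 CPM in FMD_LO, against 245, 209 and 225 CPM in CTR_LO. The groups did not overlap, and the log2 fold change was -0.55 ± 0.14 (adjusted p = 0.0165). The DSG2 call was lost without FMD_LO replicate 2 (adjusted p = 0.0743), without CTR_LO replicate 1 (0.0602) and without CTR_LO replicate 3 (0.0516), while the calls of DSP, JUP and PERP were kept under each of 19 alternatives. An antisense gene, DSG2-AS1, shares 171 exon bases with DSG2, and the counts used here were strand-specific.

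The remaining 3 genes did not pass. DSG3, the desmoglein of basal layers of stratified epithelia, had 25.99, 26.8 and 23.3 CPM in FMD_LO, against 28.7, 36.03 and 32.4 CPM in CTR_LO. Its groups did not overlap, but its log2 fold change of -0.35 ± 0.24 was not called (adjusted p = 0.335). With it, 5 of the 7 genes had FMD_LO libraries all under CTR_LO, where 17.8% of all tested genes did. PKP3, a plakophilin found in most desmosomes, had 44.3, 51.8 and 73.3 CPM in FMD_LO, against 68.2, 68.6 and 98.5 CPM in CTR_LO. Replicate 3 was the highest in both groups and the groups overlapped (log2 fold change -0.47 ± 0.20, adjusted p = 0.131). Without FMD_LO replicate 3 its log2 fold change was -0.72 and its adjusted p 0.0310. PKP2, the plakophilin of heart muscle and simple epithelia, had 0.653, 1.00 and 0.651 CPM in FMD_LO, against 1.43, 0.739 and 2.05 CPM in CTR_LO. At about 1 CPM its libraries overlapped (-0.88 ± 0.50, adjusted p = 0.252).

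**Figure D2:**
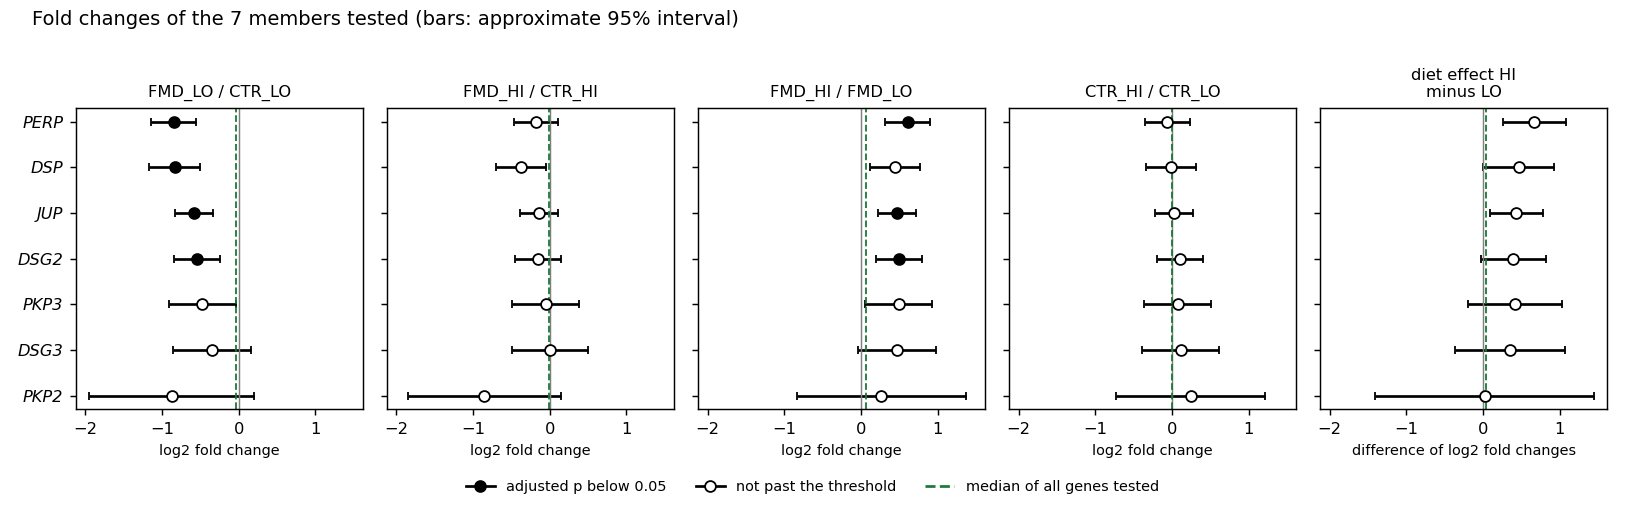
Log2 fold change of the 7 tested desmosome genes in each pairwise comparison and in the interaction, with approximate 95% intervals. Filled points passed an adjusted p below 0.05, the solid line marks 0 and the dashed line the median of all genes tested. In FMD_LO against CTR_LO all 7 points lie under 0, with 4 called, and in FMD_HI against FMD_LO all 7 lie over 0, with 3 called.

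In the more differentiated fraction, the diets were compared as FMD_HI against CTR_HI. No desmosome gene passed there, as was true of all 15461 genes with edgeR (0% called), of which 1042 had an unadjusted p below 0.05, and DESeq2 called 75 genes with 0 of the 10 among them. DSP had 252, 251 and 207 CPM in FMD_HI, against 320.0, 243 and 357 CPM in CTR_HI. CTR_HI replicate 2 lay among the FMD_HI libraries, and DSP was the 1 member with an unadjusted p below 0.05 (log2 fold change -0.37 ± 0.15, adjusted p = 0.671). The libraries of all 7 genes overlapped between the diets, where 9.2% of all genes tested did not.

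The other 6 values ran from -0.86 for PKP2 to 0.0025 for DSG3. JUP had 274, 300.5 and 325 CPM in FMD_HI, against 348, 349 and 300.3 CPM in CTR_HI, a log2 fold change of -0.15 ± 0.11 with a 95% interval from -0.39 to 0.10. PERP had 255, 336 and 327 CPM in FMD_HI, against 381, 353 and 309 CPM in CTR_HI, with -0.18 ± 0.13 and an interval from -0.47 to 0.11. For both genes the lowest control library was inside the range of the fasting-mimicking diet. DSG2 had 234, 222 and 203 CPM in FMD_HI, against 289.9, 194 and 248 CPM in CTR_HI, with -0.15 ± 0.14 and an interval from -0.45 to 0.15. DSG3 stood at 36.8, 45.1 and 23.4 CPM in FMD_HI and at 27.3, 30.6 and 47.2 CPM in CTR_HI, with a log2 fold change of 0.0025 ± 0.23. PKP3 had 68.8, 71.4 and 98.4 CPM in FMD_HI, against 88.9, 78.5 and 80.4 CPM in CTR_HI (-0.054 ± 0.20). In both of these genes single libraries differed more within a group than the groups did. PKP2 had 0.598, 1.29 and 0.884 CPM in FMD_HI, against 1.70, 0.758 and 2.55 CPM in CTR_HI, with the widest interval of the set, -1.85 to 0.14. The sum of the 10 genes was 1178 ± 53.7 CPM in FMD_HI and 1349.9 ± 104 CPM in CTR_HI.

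Within the fasting-mimicking diet, the 2 populations were compared as FMD_HI against FMD_LO. PERP, JUP and DSG2 rose, by 1.52-fold, 1.38-fold and 1.42-fold, and 3 of 7 called higher stands beside 1.84% of all tested genes called higher and 14% called in either direction. The log2 fold change was 0.61 ± 0.13 for PERP (adjusted p = 0.00694), 0.47 ± 0.12 for JUP (adjusted p = 0.0140) and 0.50 ± 0.14 for DSG2 (adjusted p = 0.0265). DSP, with 0.45 ± 0.15, missed the threshold at an adjusted p of 0.0725 and passed it with DESeq2 (0.43, adjusted p = 0.0483), which called 2.51% of genes higher. PKP3 had 0.49 ± 0.20 (adjusted p = 0.137), DSG3 0.47 ± 0.24 (0.232) and PKP2 0.27 ± 0.51 (0.780). The 7 genes had a median of 0.47, against 0.061 over all genes. For DSP, JUP, DSG2 and PERP the 3 FMD_HI libraries all lay over the 3 FMD_LO libraries, as 13.1% of all tested genes did.

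Replicate numbers of the CD24-high and CD24-low libraries went together under this diet: same-numbered libraries deviated from their group means in the same way, with correlations across genes of 0.444, 0.285 and 0.485. The ratio of FMD_HI to FMD_LO at the same number was 1.31, 1.62 and 1.19 for DSP, 1.31, 1.51 and 1.34 for JUP and 1.44, 1.53 and 1.29 for DSG2. For PERP it was 1.41, 1.71 and 1.45, and for PKP3 it was 1.55, 1.38 and 1.34. All of these pairs were higher in FMD_HI. DSG3 had 1.42, 1.68 and 1.00, so that replicate 3 was level, and PKP2 had 0.916, 1.29 and 1.36. With the replicate number as a block, 5 of the 7 genes were called, DSP (adjusted p = 0.00561) and PKP3 (adjusted p = 0.00806) being added (4201 genes called in all, against 2163 without the block, and 10.3% of genes called higher). Without the block the DSG2 call was lost in 4 fits that left out a library of these groups (FMD_LO replicate 2 or 3, FMD_HI replicate 1 or 2, with 0.107 as the highest adjusted p) and that of JUP in 3 (FMD_LO replicate 1 or 2, FMD_HI replicate 3, with 0.0925 as the highest), while PERP passed in all 19 alternatives. DSP was called without CTR_HI replicate 2 (adjusted p = 0.0314), DSG3 without FMD_HI replicate 3 (0.0400) and PKP3 without FMD_LO replicate 3 (0.0308).

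**Figure D3:**
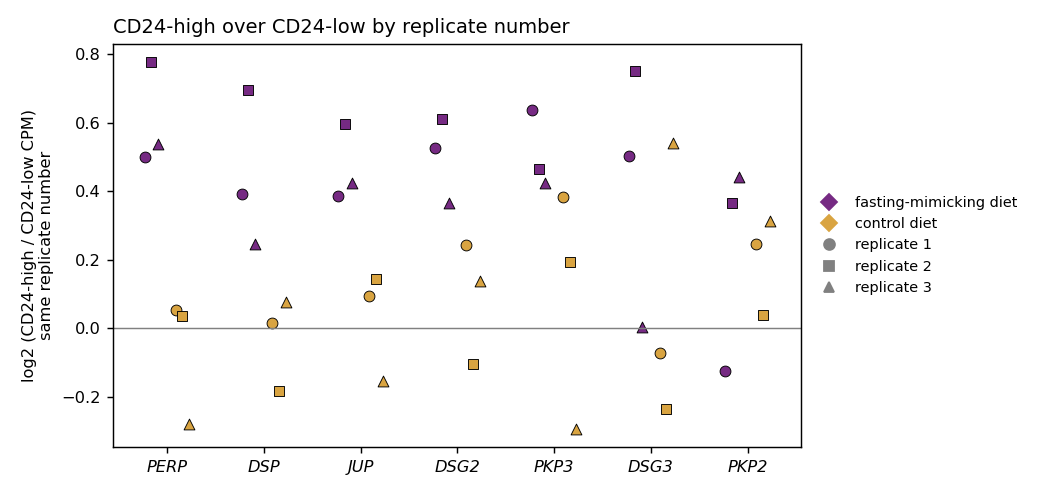
Log2 ratio of CPM in the CD24-high library to the CD24-low library of the same replicate number for 7 desmosome genes, each point 1 ratio. The fasting-mimicking diet is at the left of each gene and the standard (control) diet at its right. Same-numbered libraries were taken as pairs under the fasting-mimicking diet alone. Under the fasting-mimicking diet all 3 pairs of PERP, DSP, JUP, DSG2 and PKP3 lie over 0. Under the standard diet the ratios of each of these genes, which are not of pairs, lie on both sides of 0.

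Under the standard diet no difference of desmosome genes between the populations passed the spread of the replicates. No gene passed in CTR_HI against CTR_LO with edgeR or DESeq2 (0% of genes tested with edgeR, 91 of them with an unadjusted p below 0.05). The log2 fold changes of the 7 genes ran from -0.059 for PERP to 0.25 for PKP2, and none had an unadjusted p below 0.05. The libraries of all 7 overlapped, where 3.43% of tested genes had groups that did not. The intervals were narrow for the abundant members: -0.34 to 0.31 for DSP, -0.22 to 0.28 for JUP, -0.35 to 0.23 for PERP and -0.19 to 0.41 for DSG2. The ratio of CTR_HI to CTR_LO at the same number was 1.01, 0.880 and 1.05 for DSP and 1.04, 1.02 and 0.824 for PERP. Here the correlation of same-numbered libraries was 0.445, 0.522 and 0.0373, so the numbers were not taken as pairs.

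Whether the difference between the diets varied with the population was tested by the interaction, the log2 fold change of FMD_HI over CTR_HI minus that of FMD_LO over CTR_LO. No member was called with edgeR, where 4.13% of genes tested were called, and 3 members had an unadjusted p below 0.05, as did 2353 genes in all (15.2%). All 7 values were positive, with a median of 0.42 against 0.044 over all genes. PERP had 0.67 ± 0.19 (adjusted p = 0.0711), DSP 0.46 ± 0.21 (0.328), JUP 0.44 ± 0.16 (0.193) and DSG2 0.39 ± 0.20 (0.377). PKP3 had 0.42 ± 0.29, DSG3 0.35 ± 0.33 and PKP2 0.021 ± 0.66. DESeq2, which called 7.48% of genes, called PERP (adjusted p = 0.0251), as did edgeR without FMD_HI replicate 1 (0.0349). The fit with a replicate block within each diet, which called 11% of genes, called PERP (adjusted p = 0.00718), JUP (0.0379) and DSP (0.0463), although the numbers paired the libraries clearly under the fasting-mimicking diet alone. The comparisons share libraries, and FMD_LO enters the diet contrast in CD24-low cells, the population contrast of its diet and the interaction.

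The 3 members under the filter were counted in single reads. PKP1, the plakophilin of stratified epithelia, had 2, 8 and 4 counts in FMD_HI, 3, 3 and 4 in FMD_LO, 2, 2 and 2 in CTR_HI, and 9, 4 and 7 in CTR_LO. DSC2, the most widespread desmocollin, had 6, 3 and 1 counts in FMD_HI, 1, 6 and 2 in FMD_LO, 1, 8 and 3 in CTR_HI, and 2, 3 and 3 in CTR_LO. DSC3, a desmocollin of basal stratified layers, had 2, 1 and 1 counts in FMD_HI, 0, 0 and 0 in FMD_LO, 3, 4 and 4 in CTR_HI, and 0, 1 and 0 in CTR_LO. For DSC3 the 0 counts in FMD_LO allow a level of up to 0.0574 CPM over the group (3 counts), so a difference from FMD_HI was not detectable at this depth. Pooled over libraries, the ratio of CTR_HI to CTR_LO was 12.6 for DSC3, from 11 counts and 1 count, with an exact 95% counting interval of 1.83 to 542. For PKP1 it was 0.343, from 6 and 20 counts, with an interval of 0.113 to 0.887. Among the ratios of the 3 genes over all pairwise comparisons, these 2 were the only ones whose interval did not hold 1. They were picked out for that. The intervals cover counting error only. Of the stranded reads, 23.8% of DSC3 and 10.7% of PKP1 lay on the opposite strand, against 1.59% to 1.75% per library. For DSC2 the ratio of FMD_LO to CTR_LO was 2.40, with an interval of 0.823 to 7.16 that holds 1.

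Genes that work next to the desmosome were described from 5 lists, which were written with earlier results of these data known. Their counts stand beside those over all 15461 genes tested. In FMD_LO against CTR_LO 1863 genes were called higher and 670 lower. In FMD_HI against FMD_LO 284 were called higher and 1879 lower. Among 22 partners (other desmosomal proteins, plakins and intermediate filaments), 16 were tested. Between the diets in CD24-low cells 5 were called lower and 2 higher, with a median of -0.39. The 5 that fell were keratins of basal and simple epithelia, the filaments that desmoplakin holds. KRT5 had 1751 ± 767 CPM in FMD_LO and 4347 ± 458 CPM in CTR_LO (-1.31 ± 0.31, adjusted p = 0.0134), a call lost without FMD_LO replicate 1, FMD_LO replicate 2 or CTR_LO replicate 3 (0.0528 to 0.0688). KRT17 had 3232 ± 306 CPM in FMD_LO and 5987 ± 237 CPM in CTR_LO (-0.89 ± 0.19, adjusted p = 0.00512), which held under all alternatives tried. KRT18 had 299 ± 30.5 CPM in FMD_LO and 400.5 ± 36.1 CPM in CTR_LO (-0.42 ± 0.12, adjusted p = 0.0266), a call lost without FMD_LO replicate 1 or 2 or CTR_LO replicate 2 or 3 (0.0631 to 0.140). KRT14 and KRT15 were the other 2, with calls lost in 5 and 6 of 19 alternatives (adjusted p up to 0.140 and 0.111). KRT14, KRT16 and KRT17 are close copies, and reads that they share may be missing from the counts. The 2 called higher, KRT81 and KRT19, did not reach 1 CPM in mean. Both were highest in FMD_LO and would not have passed the count filter without its libraries, so no direction is read from their calls. KRT19 had 0.694 ± 0.230 CPM in FMD_LO and 0.199 ± 0.0997 CPM in CTR_LO. KRT81 had 0.620 ± 0.388 CPM in FMD_LO and 0.124 ± 0.0668 CPM in CTR_LO (2.33 ± 0.60, adjusted p = 0.0176), and this call was lost without FMD_LO replicate 2 (1.70) or CTR_LO replicate 1 or 3 (adjusted p 0.0660 to 0.132). In FMD_HI against FMD_LO, KRT17 (0.68 ± 0.18, adjusted p = 0.0240) and KRT18 (0.44 ± 0.12, adjusted p = 0.0213) rose. The calls of KRT17 and KRT18 were lost without FMD_LO replicate 1 or 2 or FMD_HI replicate 3, that of KRT17 also without FMD_LO replicate 3 or FMD_HI replicate 2 and that of KRT18 also without FMD_HI replicate 1 (0.0524 to 0.126).

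The hemidesmosome, which anchors keratin to the basement membrane through the integrin of ITGA6 and ITGB4 and laminin-332, had 4 genes that fell in FMD_LO against CTR_LO. All 9 of its genes were tested, all 9 log2 fold changes were negative, and the median was -0.76. LAMB3, a chain of laminin-332, had 209 ± 5.93 CPM in FMD_LO and 418 ± 66.2 CPM in CTR_LO (-0.998 ± 0.16, adjusted p = 7.16e-04). ITGA6 had 254 ± 31.8 CPM in FMD_LO and 461 ± 61.2 CPM in CTR_LO (-0.86 ± 0.17, adjusted p = 0.00303), and ITGB4 had 258 ± 52.1 CPM in FMD_LO and 439 ± 92.2 CPM in CTR_LO (-0.76 ± 0.17, adjusted p = 0.00707). LAMA3 was the remaining one, at -1.05 ± 0.25 (adjusted p = 0.0144), with the call lost without FMD_LO replicate 1 or 2 or CTR_LO replicate 3 (0.0530 to 0.0658). In FMD_HI against FMD_LO all 9 were positive and ITGB4, LAMB3, ITGA6 and the plakin PLEC rose, by 0.56 to 0.79 on the log2 scale, though ITGA6 had an adjusted p of 0.0696 without FMD_LO replicate 2.

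Of 14 adherens junction genes 1 fell and 3 rose in FMD_LO against CTR_LO, with a median of 0.15. P-cadherin, CDH3, had 178 ± 27.5 CPM in FMD_LO and 336 ± 53.6 CPM in CTR_LO (-0.92 ± 0.16, adjusted p = 0.00178). The cadherin of mesenchymal cells CDH11 had 67.4 ± 0.691 CPM in FMD_LO and 6.83 ± 7.45 CPM in CTR_LO (3.32 ± 0.75, adjusted p = 0.0159). This call was lost in the fit of only these 2 groups (adjusted p = 0.0894) and without CTR_LO replicate 1 (0.0560), and without CTR_LO replicate 2 the log2 fold change was 4.61. Fibroblasts also express this gene. The calls of CTNNB1, the beta-catenin that is a close relative of JUP (0.32 ± 0.10, adjusted p = 0.0430), and of PVRL3, the nectin-3 gene (0.44 ± 0.14, adjusted p = 0.0443), were lost in 12 and 9 of 19 alternatives (adjusted p up to 0.161 and 0.178). Among these were all fits without a library of the groups compared, except that PVRL3 was kept without FMD_LO replicate 3. Of 18 tight junction genes 11 were tested and 2 fell, F11R (-0.94 ± 0.17, adjusted p = 0.00182) and CLDN1 (-0.68 ± 0.15, adjusted p = 0.00680), with a median of -0.29. In FMD_HI against FMD_LO, CDH3, F11R and CLDN1 rose and CDH11, PVRL3 and CTNNB1 fell. Of these calls, those of CDH3, F11R, CLDN1 and CTNNB1 were each lost without FMD_LO replicate 1 and without FMD_LO replicate 2, and some without other libraries or in the fit of only the groups compared (adjusted p up to 0.186).

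Among 20 transcription factors and splicing regulators of epithelial identity, 16 were tested, and 4 rose and 1 fell in FMD_LO against CTR_LO. TP63, the factor of basal epithelial cells that controls many desmosomal genes, PERP among them, had 168 ± 9.76 CPM in FMD_LO and 264 ± 36.02 CPM in CTR_LO (-0.65 ± 0.15, adjusted p = 0.0105). ZEB2, which represses epithelial genes through E2 boxes, had 305 ± 65.9 CPM in FMD_LO and 63.0 ± 24.6 CPM in CTR_LO (2.28 ± 0.28, adjusted p = 2.06e-04). TWIST1 and TWIST2, further factors of mesenchymal cells, had 0.81 ± 0.20 (adjusted p = 0.0154) and 0.93 ± 0.24 (adjusted p = 0.0202). KLF4, a factor of epithelial differentiation, was the other gene that rose, with 73.1 ± 10.6 CPM in FMD_LO and 46.1 ± 6.33 CPM in CTR_LO (0.67 ± 0.20, adjusted p = 0.0356). The KLF4 call was lost with the replicate block (0.0517) and without FMD_LO replicate 1 or CTR_LO replicate 1 or 2 (0.0818 to 0.132). The TWIST1 call was lost in the fit of only these 2 groups (0.0626) and without FMD_LO replicate 2 (0.0704), and the TWIST2 call without FMD_LO replicate 1 or 2 or CTR_LO replicate 1 or 3 (0.0661 to 0.0802). In FMD_HI against FMD_LO, ZEB2 (-2.18 ± 0.28, adjusted p = 2.40e-04) and TWIST1 (-1.15 ± 0.21, adjusted p = 0.00171) fell. Leukocytes and stromal cells also express ZEB2 and the TWIST factors, and the leukocyte sum moved with them as given above, but its part in these values was not tested. None of the genes of the 5 lists was called in FMD_HI against CTR_HI or in CTR_HI against CTR_LO.

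**Figure D4:**
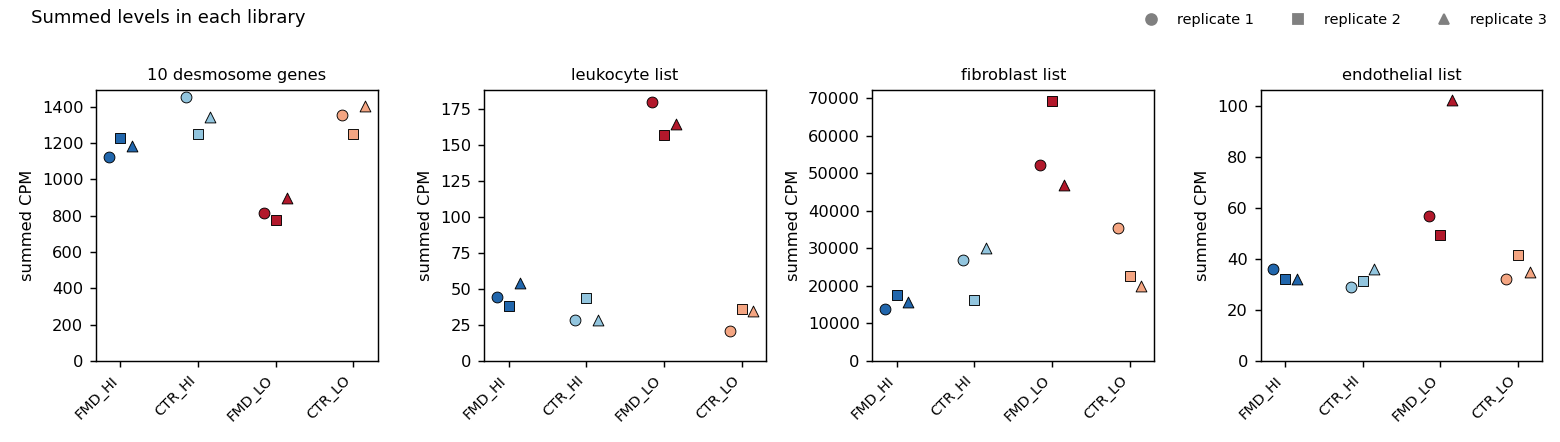
Summed CPM per library of the 10 desmosome genes and of the leukocyte, fibroblast and endothelial lists, by group (FMD_HI, CTR_HI, FMD_LO, CTR_LO), each point 1 library and its shape the replicate number. The 3 FMD_LO libraries are the lowest 3 of 12 in the desmosome sum and the highest 3 in each of the 3 marker sums.

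Of 9 markers of differentiated keratinocytes, KRT10, a keratin of upper epidermal layers, averaged 25.5 to 26.5 CPM over the groups and the other 8 were each under 1 CPM in mean. Together they summed to 23.7 to 28.7 CPM in FMD_HI, 21.6 to 28.4 in CTR_HI, 23.3 to 30.4 in FMD_LO and 25.95 to 27.3 in CTR_LO, with 2 tested and 0 called, and loricrin (LOR) was at 0 in every library. The messenger RNA of the sort antigens was not called in any comparison of the fit used throughout. CD24 had 2.11 ± 1.01 CPM in FMD_HI and 1.58 ± 0.481 CPM in FMD_LO, and 1.90 ± 0.827 CPM in CTR_HI and 2.15 ± 0.770 CPM in CTR_LO. CD44 had 1076 ± 165 CPM in FMD_HI and 747 ± 137 CPM in FMD_LO (0.53 ± 0.18, adjusted p = 0.0775). It was called in 3 of 19 alternatives: without a count filter, with the replicate block (adjusted p = 0.0116) and without FMD_LO replicate 1.

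For each member of at least 5 CPM, the 2 tested genes with the most similar profile were found from the mean absolute difference of log2 CPM over the 12 libraries, after each gene was centred on its own mean. For DSP these were IGSF3 at 0.0632 and SESN3 at 0.0781, and for JUP they were DGKA at 0.0440 and NTPCR at 0.0525. DSG2 was nearest to ERVMER34-1 (0.0703) and SLC25A30 (0.0723), DSG3 to ZNF286B (0.0985) and NOM1 (0.0988), and PKP3 to SLC25A10 (0.0838) and RIN1 (0.0866). PERP was nearest to CBR1 (0.0797) and to P-cadherin, CDH3 (0.0886). The nearest member was JUP for PERP and PERP for JUP, at 0.102, and DSG2 for DSP and DSP for DSG2, at 0.1495. Of 13970 candidate genes, 9 were nearer to PERP than JUP was and 80 nearer to JUP than PERP was, while 46 were nearer to DSP than DSG2 was and 391 nearer to DSG2 than DSP was. The nearest member to PKP3 was JUP, at 0.158 with 211 genes nearer, and the nearest to DSG3 was DSG2, at 0.249 with 1998 genes nearer. Profiles over 12 libraries share the library, its depth and its group, and the measure describes likeness alone.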

How the data were processed

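Strand-specific, polyadenylated RNA of 12 sorted samples was sequenced. Per the submitters' processing notes, the authors aligned reads with STAR to hg38. The STAR version, the annotation and the handling of reads from the mouse host are not given in the sources used here. Raw counts per gene and library were deposited, and the reverse-strand column (column 4) was used, since 1.59% to 1.75% of stranded reads lay on the opposite strand.

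All 12 libraries entered 1 edgeR 4.0.16 quasi-likelihood fit (R 4.3.3, TMM scaling, filterByExpr by group, 8 residual degrees of freedom), and genes were called where p, adjusted by Benjamini-Hochberg over the 15461 tested, was below 0.05. Where no tool is named, an adjusted p is that of edgeR. Standard errors, derived from the size of the log2 fold change and its F statistic, and the 95% intervals are approximate. CPM are scaled by TMM, and levels per kb use the union of GENCODE exons. Replicate median chi-square statistics per gene of 2.24 or more showed no library deposited more than once. The script was tested on simulated data.

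The members, lists and tests were chosen with earlier results of these data known. The text names all members, CD24 and CD44, and from each list up to 4 genes called with the smallest p in a comparison. KRT14, KRT15, KRT19 and KLF4 were added to complete counts, and ZEB1, SNAI1 and SNAI2 as uncalled repressors beside ZEB2, all with their values seen. Same-numbered libraries were taken as pairs where the correlation of their deviations exceeded 0.1 in every pair, which held for FMD_HI with FMD_LO alone and comes from the data, since the labels give only the number. The alternatives tried were DESeq2 1.42.0, RLE scaling, counts of both strands, all genes unfiltered, a fit of only the groups compared, a replicate block, thinning to equal depth, and each library left out. No alternative was added later.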

Additional observations from a re-analysis of the deposited data

Results flagged for a closer look

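The diet contrast of ZEB2, an E2-box repressor, differed between the populations by the test of the difference itself. The log2 fold change of FMD_HI over CTR_HI minus that of FMD_LO over CTR_LO was -2.08 ± 0.38 (edgeR adjusted p = 0.0102, and 1.52e-06 to 0.0301 over its alternatives). ZEB2 had 67.2 ± 8.37 CPM in FMD_HI and 58.7 ± 14.8 CPM in CTR_HI, and 305 ± 65.9 CPM in FMD_LO and 63.0 ± 24.6 CPM in CTR_LO. ZEB2 was not alone in this, as 8 genes were called positive and 630 negative in the interaction. Among the negative ones were 4 of 8 leukocyte and 2 of 10 fibroblast genes tested. PTPRC had -4.61 ± 0.37 (edgeR adjusted p = 3.84e-05) and COL1A1 had -1.55 ± 0.29 (0.00876). The leukocyte sum was also highest in FMD_LO, and its part in the ZEB2 value was not tested. No such difference passed for any of the 7 desmosome genes with edgeR, all 12 libraries and no block.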

How the results depend on the processing

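Of 658 alternative values for the log2 fold changes of the 7 desmosome genes, 607 kept their direction and their side of the threshold, 10 lost a call, 13 gained one and 28 changed sign, all of these among uncalled values, and the causes were not tested. In FMD_HI against CTR_HI, DSG3 was -0.0091 with the replicate block and -0.041 thinned, and the PKP2 interaction was -0.25 thinned. Without single libraries, FMD_HI against CTR_HI ran from -0.20 to 0.27 for DSG3 and -0.24 to 0.051 for PKP3, and FMD_HI against FMD_LO from -0.018 to 0.51 for PKP2 and -0.024 to 0.64 for CD24. CTR_HI against CTR_LO ran from -0.035 to 0.24 (DSG2), -0.15 to 0.26 (DSG3), -0.13 to 0.12 (DSP), -0.011 to 0.11 (JUP), -0.13 to 0.027 (PERP), -0.19 to 0.61 (PKP2) and -0.027 to 0.28 (PKP3), and the PKP2 interaction from -0.33 to 0.44.

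Genes called in FMD_HI against CTR_HI numbered 1 without a count filter, 75 with DESeq2 and 1 with the replicate block, against 0. The block gave 4201 genes and 5 desmosome genes in FMD_HI against FMD_LO, and 1702 and 3 in the interaction, where DESeq2 gave 1156 and 1. In FMD_LO against CTR_LO, whose numbers paired no libraries, PKP3 passed with the block (adjusted p = 0.0409). The CTR_HI and CTR_LO numbers paired with correlations of 0.445, 0.522 and 0.0373, and the block called 0 genes there. It changed no other call of a desmosome gene. Leaving out 1 library gave 1562 to 2795 genes and 3 to 5 desmosome genes in FMD_LO against CTR_LO, with 1662 genes without FMD_LO replicate 1, 1562 without FMD_LO replicate 2 and 1577 without CTR_LO replicate 3. It gave 1504 to 2318 and 1 to 4 in FMD_HI against FMD_LO, with 1 desmosome gene without FMD_LO replicate 2, and 380 to 767 and 0 to 1 in the interaction, with PERP called without FMD_HI replicate 1 and 412, 380, 409 and 403 genes without FMD_LO replicate 1, FMD_LO replicate 2, CTR_LO replicate 3 and FMD_HI replicate 2, against 638. In FMD_HI against CTR_HI it gave 0 to 1 genes and 0 desmosome genes. For PKP1, DSC2 and DSC3 depth limits what can be seen. Among the 7 genes tested PKP2 also had few counts, with 11, 17 and 12 in the FMD_LO libraries. For these 7 genes the parts of depth and of the spread between replicates were not tested.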
